A study of Mus musculus with 12 samples.

Results

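The genes of eukaryotic translation initiation factors were described here by their H3K27ac, acetylation of histone H3 at lysine 27, a mark of active promoters and enhancers, in regenerating mouse liver. Members were all acetylated regions of the deposited table whose gene symbol begins with Eif and a digit, without the Eif2ak kinases. Repeated regions had been dropped. This gave 103 regions of 37 genes, among 36387 regions of 11240 gene names. Both groups came from mice that carried a floxed Cox10 allele, had AAV8 injected retroorbitally, lost 70% of the liver by partial hepatectomy 4 weeks later and gave liver on day 2 after the surgery. The virus carried GFP in the group labelled wild-type and Cre recombinase in the group labelled Cox10-/-. Cox10 encodes the farnesyltransferase that makes heme O, the precursor of the heme A of cytochrome c oxidase. Each group had 3 H3K27ac libraries. The labels give neither the sex nor the age of the mice, nor the promoter that drives Cre, nor whether the libraries of a group came from separate animals, so p-values here cover only the spread between libraries, which may be technical. Whole liver was used, so fewer cells of a type and less acetylation per cell cannot be told apart.

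As background, initiation begins when eIF2 brings the initiator tRNA to the small ribosomal subunit. The multisubunit eIF3 holds the complex together, and eIF1 and eIF1A keep it open while it searches for a start codon. The mRNA is brought in by eIF4F, in which eIF4E binds the cap, eIF4G is the scaffold and eIF4A unwinds the leader. Control is exerted at eIF2, whose guanine nucleotide exchange by eIF2B is blocked when stress kinases phosphorylate it, and at eIF4E, which 4E-BP proteins hold inactive until mTORC1 phosphorylates them. Growing hepatocytes need much protein synthesis, and damaged mitochondria are known to switch on the stress branch.

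The H3K27ac level is given as normalised reads, the reads in a region divided by a size factor of its library, here called the deposited scale. The size factors were 0.730 to 0.782 in wild type and 1.18 to 1.32 in Cox10-/-, and their origin is not given in the sources used. The direction of a change on this scale depends on them. The libraries held between 3282878 and 4187377 reads in regions, and the median region was lower in Cox10-/- by 1.05 on the log2 scale, a change of -1.05. Each change is therefore also given after every library was centred on its own median region, here called the centred scale, which measures a region against the rest of the genome. The 6 hepatocyte markers Alb, Apoa1, Ttr, Serpina1c, Apob and Cps1 all carried promoter regions, so the tissue matched its label. Their summed level was 3421 to 3603 in wild type and 889 to 1074 in Cox10-/-. Of 5 macrophage markers, Cd68 and Cd14 had a region, and their sum was 173 to 193 in wild type and 317 to 382 in Cox10-/-. Cd14 alone carried this rise, from 140.4 ± 1.26 to 314 ± 28.3 (SD, n = 3), while Cd68 went from 41.7 ± 10.5 to 38.4 ± 4.41 and was not called on the deposited scale. Of 5 endothelial markers, Pecam1 and Lyve1 had one (189 to 201 and 124 to 155), and of 5 biliary markers Epcam and Sox9 had one (97.2 to 118 and 82.6 to 97.7). Ptprc alone of 4 lymphoid markers had one (61.3 to 89.1 and 14.4 to 22.1), and none of 5 stellate markers had any. The part of these cell types in the changes at initiation factor genes was not tested. The only region named for Cox10 lay in an intron, at 15.1 ± 2.54 in wild type and 57.4 ± 10.3 in Cox10-/- (SD, n = 3), and does not check the deletion.

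Promoter sequences from RefSeq (GRCm38.p6, the build of mm10) were matched by symbol for 29 of the 37 genes. The 250 bases before the start site are shown for 8 of them. Eif2s2 and Eif4g3 had the smallest loss of acetylation in their role groups, Eif2b1 and Eif4ebp2 the largest. In Eif1 and Eif3a the acetylated regions on the 2 sides of the start site changed by different amounts. Eif4h and Eif3f carry an E-box, CACGTG, the site of Myc and related factors. Capitals mark matches to 5 motifs searched on both strands: the E-box, the ETS family core CCGGAAG, the TATA box TATAAA, the C/EBP-ATF4 composite element TGATGNAA and the cyclic AMP response element TGACGTCA.
Eif2s2 (chr2:154892907-154893156, minus strand): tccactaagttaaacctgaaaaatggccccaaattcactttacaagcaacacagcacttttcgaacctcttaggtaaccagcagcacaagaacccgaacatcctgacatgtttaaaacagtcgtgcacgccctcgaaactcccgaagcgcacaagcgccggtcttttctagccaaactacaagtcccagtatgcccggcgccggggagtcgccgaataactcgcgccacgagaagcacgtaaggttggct
Eif4g3 (chr4:137993205-137993454, plus strand): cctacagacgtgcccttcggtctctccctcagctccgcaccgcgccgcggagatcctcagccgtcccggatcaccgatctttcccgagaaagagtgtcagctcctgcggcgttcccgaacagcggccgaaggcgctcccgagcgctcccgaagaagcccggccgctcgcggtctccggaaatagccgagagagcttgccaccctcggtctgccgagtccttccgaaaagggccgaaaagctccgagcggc
Eif1 (chr11:100319699-100319948, plus strand): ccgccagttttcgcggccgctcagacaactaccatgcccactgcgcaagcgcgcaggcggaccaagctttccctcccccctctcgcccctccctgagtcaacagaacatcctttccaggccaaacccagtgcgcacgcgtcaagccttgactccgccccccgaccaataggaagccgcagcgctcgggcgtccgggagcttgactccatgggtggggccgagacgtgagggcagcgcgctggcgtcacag
Eif3a (chr19:60790694-60790943, minus strand): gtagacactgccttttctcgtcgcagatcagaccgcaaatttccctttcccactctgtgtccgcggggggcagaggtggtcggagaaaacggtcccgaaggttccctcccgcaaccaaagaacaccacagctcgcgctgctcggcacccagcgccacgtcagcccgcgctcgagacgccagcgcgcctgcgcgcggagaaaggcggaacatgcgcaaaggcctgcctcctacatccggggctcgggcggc
Eif4h (chr5:134639410-134639659, minus strand): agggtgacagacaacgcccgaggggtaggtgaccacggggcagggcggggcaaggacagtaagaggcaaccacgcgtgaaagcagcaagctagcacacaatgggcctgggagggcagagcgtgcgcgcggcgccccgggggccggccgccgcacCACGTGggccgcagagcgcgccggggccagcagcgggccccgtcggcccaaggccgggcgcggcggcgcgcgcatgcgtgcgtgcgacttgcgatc
Eif3f (chr7:108934165-108934414, plus strand): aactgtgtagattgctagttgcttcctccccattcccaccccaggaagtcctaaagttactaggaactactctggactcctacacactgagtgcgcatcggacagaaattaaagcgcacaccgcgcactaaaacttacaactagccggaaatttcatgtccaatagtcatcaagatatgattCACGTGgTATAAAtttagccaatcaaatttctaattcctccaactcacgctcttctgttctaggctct
Eif4ebp2 (chr10:61452670-61452919, minus strand): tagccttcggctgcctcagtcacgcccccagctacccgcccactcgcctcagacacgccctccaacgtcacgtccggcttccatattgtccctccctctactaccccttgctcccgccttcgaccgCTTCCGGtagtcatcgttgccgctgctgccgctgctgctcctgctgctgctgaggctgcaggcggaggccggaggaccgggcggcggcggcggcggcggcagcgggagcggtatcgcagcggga
Eif2b1 (chr5:124579132-124579381, minus strand): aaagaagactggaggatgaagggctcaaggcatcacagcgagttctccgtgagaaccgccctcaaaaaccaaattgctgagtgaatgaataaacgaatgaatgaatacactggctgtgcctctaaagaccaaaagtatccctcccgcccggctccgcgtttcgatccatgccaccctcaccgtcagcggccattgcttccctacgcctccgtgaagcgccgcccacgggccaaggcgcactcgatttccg
The E-box of Eif4h began 96 bases before the start site and that of Eif3f 68 bases before it, with a TATA box from 61. The ETS core of Eif4ebp2, in reverse, began 124 bases before the start. In windows of 250 bases before to 50 after a start, an E-box was found in 8 of 29 member genes (27.6%), against 8.09% of 27025 genes and 11.8% of the 7469 genes with an acetylated promoter. They were Eif1b, Eif3a, Eif3f, Eif3k, Eif4a1, Eif4e, Eif4h and Eif5a. The ETS core was found in 10 of 29 (34.5%), against 9.93% of all genes and 20.7% of acetylated ones. The ATF4 composite element was found in Eif2s3x alone (3.45%, against 4.51% and 2.65%), the cyclic AMP element in none (2.03% and 3.66%) and a TATA box in Eif2s1, Eif3b and Eif3f (10.3%, against 15.7% and 8.93%). Genes with several start sites had several windows, and these shares are a description of letters, not of bound factors.

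H3K27ac was lower in Cox10-/- at 90 of the 103 regions on the deposited scale, higher at 4 and not called at 9 (limma, Benjamini-Hochberg adjusted p under 0.05 over all 36387 regions). Of all regions, 87.2% were lower and 4.46% higher, so the member count lay near the background. All Cox10-/- libraries lay below all wild-type ones at 90 member regions, against 86.4% of all regions. The members' loss was smaller in size: the median change was -0.78, a 1.72-fold loss, against -1.04 or 2.06-fold over all regions. On the centred scale 52 member regions were higher, 17 lower and 34 not called, against 33.6% higher and 32.4% lower of all regions. Centred on promoter regions in place of all regions, the split was 43 higher and 27 lower.

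All 37 genes had a promoter region, within 1 kb of a start site, and 59 of the 103 regions were promoter regions. At the strongest promoter region of each gene, acetylation was lower at 37 of 37 genes on the deposited scale, and all 3 Cox10-/- libraries lay below all 3 wild-type libraries at each. This was near the background of 93.8% lower, 0.807% higher and 93% of genes without overlap, among the 9663 genes with a promoter region. The median loss was 1.5-fold (-0.59) in the members and 1.76-fold (-0.82) in all genes. These losses rest on the size factors. Before division, reads were higher in Cox10-/- at some of these regions and lower at others. Eif2s2 held 171, 189 and 188 reads in wild type and 241, 273 and 243 in Cox10-/-. Eif2b1 held 53, 50 and 56 reads in wild type and 45, 45 and 24 in Cox10-/-. On the centred scale 29 of the 37 genes were higher, none lower and 8 not called, against 49.2% higher and 15.4% lower. The 8 were Eif2a, Eif2d, Eif2s3x, Eif2b1, Eif2b2, Eif2b4, Eif3k and Eif4ebp2. When 1 region per gene was fitted and centred, 23 were higher and Eif4ebp2 was lower, and the calls of Eif2b3, Eif3h, Eif3i, Eif3l, Eif4b and Eif5a ended.

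**Figure D1:**
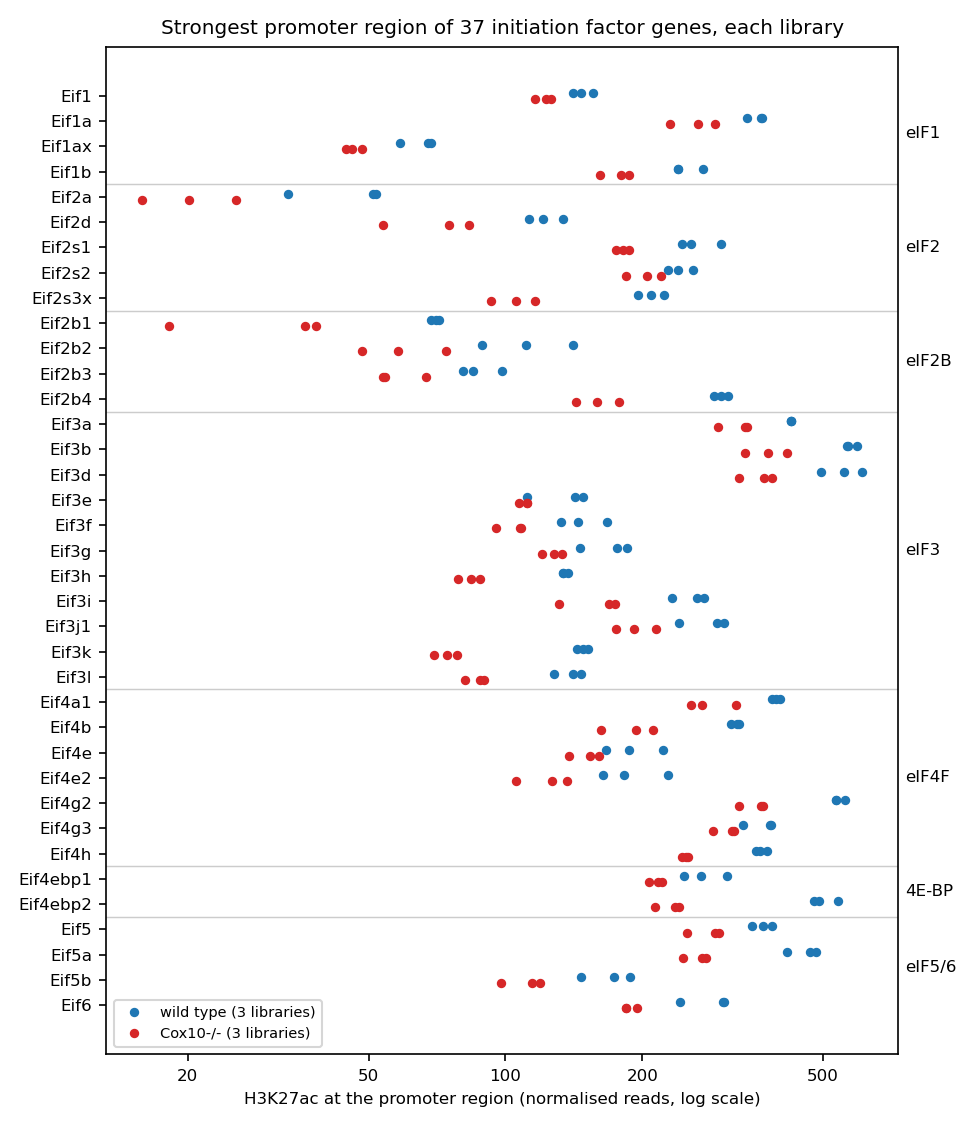
H3K27ac at the strongest promoter region of each of the 37 genes, in normalised reads on a log axis, grouped by role, with 1 point per library (3 wild type in blue, 3 Cox10-/- in red). At every gene the red points lie to the left of the blue ones. The distance is narrow for Eif2s2, Eif3e and Eif4g3 and wide for Eif2b1, Eif2a and Eif4ebp2.

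**Figure D2:**
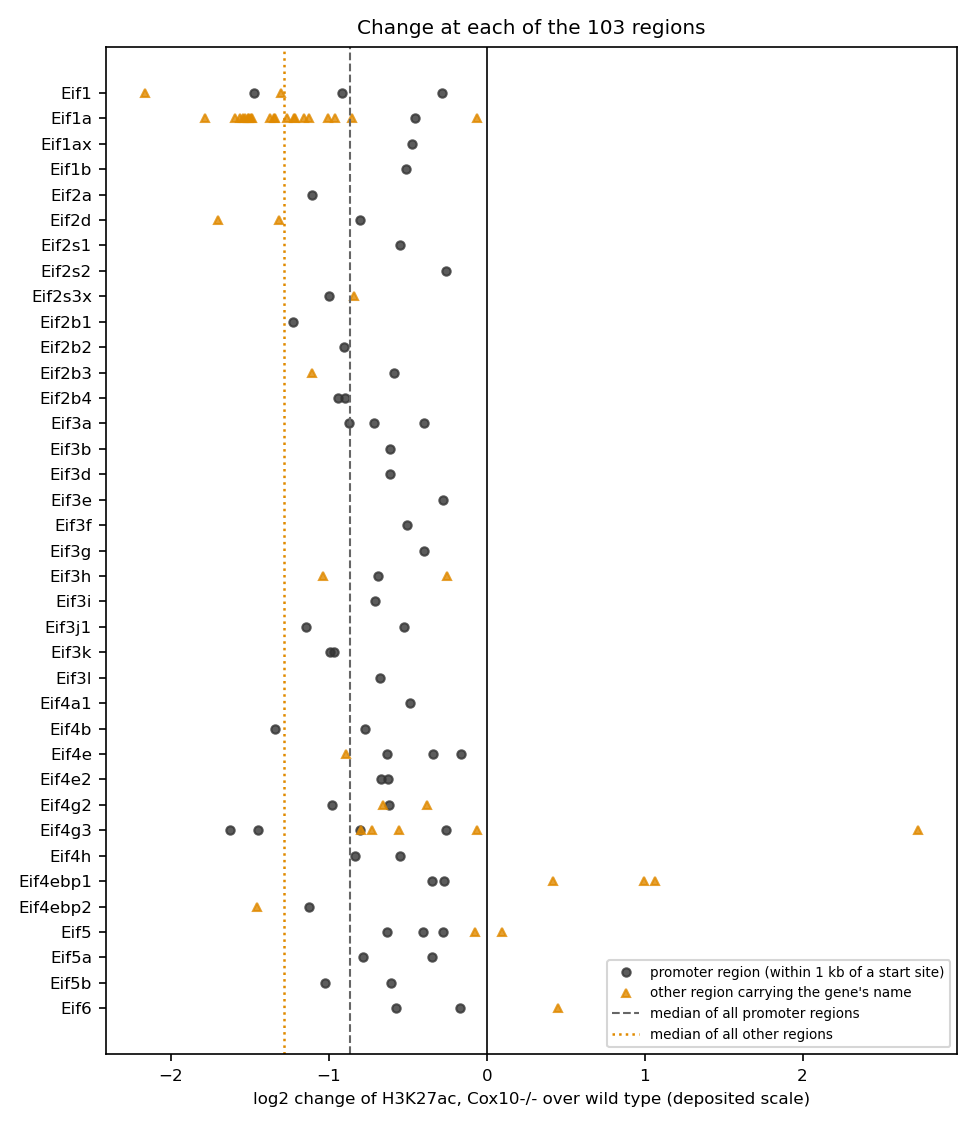
The log2 change of H3K27ac at all 103 regions on the deposited scale, by gene in the same order, with promoter regions as circles and other regions as triangles. Most promoter circles lie between 0 and the median of all promoter regions (dashed), and the triangles farthest to the right are regions of Eif4g3, Eif4ebp1 and Eif6.

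Among the scanning factors, all 4 genes lost acetylation on the deposited scale (median -0.46) and all 4 were higher on the centred scale. Of all genes with a promoter region, 93.8% were lower on the deposited and 49.2% higher on the centred scale. The role groups that follow are read against these shares. Eif1, whose product guards the choice of start codon, held 141, 147 and 156 normalised reads in wild type and 126, 123 and 116 in Cox10-/- at its strongest promoter region (chr11:100320010-100320424). The groups did not overlap, with a log2 change of -0.28 (SE 0.12, limma adjusted p = 0.023). The call ended without wild-type library 3 (adjusted p = 0.090, limma) or Cox10-/- library 3 (adjusted p = 0.051). Eif1b, its close copy, held 273, 239.7 and 240.3 normalised reads in wild type and 187, 180.0 and 161 in Cox10-/- at chr9:120492220-120493277, with no overlap and the lowest centred change of the group (0.54). That region also holds the start site of D830035M03Rik, so its acetylation cannot be given to Eif1b alone. Eif1a and Eif1ax encode nearly the same protein, eIF1A, from chromosomes 18 and X, and changed by -0.46 and -0.47 on the deposited scale.

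The 5 genes that load the initiator tRNA all lost acetylation on the deposited scale, from -0.25 to -1.11 with a median of -0.80. Eif2s2, for the beta subunit of eIF2, had 227, 259 and 240.3 normalised reads in wild type and 205, 220.3 and 184 in Cox10-/- (chr2:154892099-154892804). The groups lay close without overlap, with a log2 change of -0.25 (SE 0.1, limma adjusted p = 0.015), and the call ended without wild-type library 2 (adjusted p = 0.094, limma) or Cox10-/- library 3 (0.066). On the centred scale Eif2s2 was higher by 0.80, the largest value among the 37 promoters together with that of Eif4g3. Eif2s1, for the alpha subunit that stress kinases phosphorylate, changed by -0.55 on the deposited and 0.50 on the centred scale. Eif2s3x, for the gamma subunit that binds GTP, went from 209.7 ± 13.8 to 104.9 ± 11.8 normalised reads (SD, n = 3), and its centred change of 0.06 was not called. Eif2a, an alternative tRNA carrier that is not a subunit of eIF2, held 33.3, 52.0 and 51.1 normalised reads in wild type and 25.5, 20.2 and 15.9 in Cox10-/- at a region of 200 bases (chr3:58526104-58526304). It fell by 1.11 on the log2 scale (limma adjusted p = 1.1e-05), with 1 wild-type library well below the other 2 and no overlap. Eif2d, another alternative carrier, changed by -0.80. Of the 5 genes Eif2s1 and Eif2s2 were called higher on the centred scale.

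The exchange factor eIF2B had the largest median loss of the role groups, -0.90 over 4 genes, against -0.82 over all genes with a promoter region. On the centred scale its median was 0.15, against 0.23 in all genes. There 1 of the 4 genes was called, as higher, against 49.2% higher of all genes. Eif2b1 held 70.5, 68.5 and 71.6 normalised reads in wild type and 38.2, 36.3 and 18.2 in Cox10-/- (chr5:124578734-124579003). The wild-type libraries lay close together while Cox10-/- library 3 lay well below the other 2, with a log2 change of -1.23 (SE 0.2, limma adjusted p = 3.5e-09). Its centred change of -0.17 was not called, and was 0.10 without that library. Eif2b3 held 98.4, 84.9 and 80.5 normalised reads in wild type and 54.4, 67.0 and 53.8 in Cox10-/- (chr4:117019434-117019818), with no overlap, a change of -0.59 and a centred change of 0.47 (limma adjusted p = 0.0037, and 0.062 in the fit on 1 region per gene). Eif2b2 (-0.90) and Eif2b4 (-0.90) lay between them. The strongest region of Eif2b4 holds the start site of Snx17 but not the RefSeq start site of Eif2b4. Its acetylation therefore cannot be given to Eif2b4 alone. The catalytic subunit gene, Eif2b5, is on chromosome 16, which was not analysed here.

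Of the genes for subunits of eIF3, 11 had a region. On the centred scale 10 of the 11 were higher, against 49.2% of all genes, or 7 in the fit on 1 region per gene. Losses on the deposited scale ran from -0.27 to -0.99, with a median of -0.61. Eif3e held 112, 142 and 148 normalised reads in wild type and 107, 111 and 111 in Cox10-/- (chr15:43282269-43282706). The lowest wild-type library lay just above the highest Cox10-/- library, with a log2 change of -0.27 (SE 0.13, limma adjusted p = 0.033). That call ended without wild-type library 2 (adjusted p = 0.13, limma), wild-type library 3 (0.19), Cox10-/- library 1 (0.073) or Cox10-/- library 2 (0.056). Eif3k, a peripheral subunit, held 152, 144 and 148 normalised reads in wild type and 78.2, 74.2 and 69.7 in Cox10-/- (chr7:28981230-28981785). Its groups stood far apart, at a log2 change of -0.99 (SE 0.13, limma adjusted p = 3.3e-12), and the centred change of 0.06 was not called. The core scaffold genes Eif3a and Eif3b changed by -0.39 and -0.61, and Eif3d, whose product can bind some caps itself, by -0.61. Per kilobase of region the strongest promoter of Eif3a had the highest level of the 37 in wild type, 486 normalised reads per kb, and Eif1ax the lowest, 191. The region of Eif3i holds the start site of Tmem234, so its acetylation cannot be given to Eif3i alone.

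All 7 genes of eIF4F and its helpers with a region were higher on the centred scale, and all 7 lost acetylation on the deposited scale, with a median of -0.55. The shares of all genes were 49.2% and 93.8%. Eif4g3, a scaffold of the eIF4G family, held 382, 383 and 334 normalised reads in wild type and 318, 315 and 286 in Cox10-/- (chr4:137993474-137995121). The groups did not overlap and lay close, with a log2 change of -0.26 (SE 0.09, limma adjusted p = 0.0056) and a centred change of 0.80. Eif4b, a helper of the helicase, had 327, 314 and 323 normalised reads in wild type and 194, 211 and 162 in Cox10-/- (chr15:102073906-102074639). It changed by -0.77 on the deposited and 0.28 on the centred scale. The centred call of Eif4b ended when libraries were centred on promoters (0.14) or quantile normalised (0.17). It also ended in the fit on 1 region per gene (0.13). Eif4e, for the cap-binding protein, changed by -0.34, and Eif4a1, for the main helicase, by -0.48. Eif4e2, for a cap-binding homologue that represses translation, changed by -0.63, Eif4g2 by -0.62 and Eif4h by -0.55. Levels of Eif4e were uneven among wild-type libraries, at 166, 222 and 187 normalised reads at its strongest region, and the lowest lay only just above the highest Cox10-/- library, 161.

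Of the inhibitors of eIF4E, Eif4ebp1 and Eif4ebp2 had regions, and both fell on the deposited scale, by 0.35 and 1.12. Eif4ebp1 held 307, 247 and 269.7 normalised reads in wild type and 206, 217 and 221 in Cox10-/- at its strongest promoter region (chr8:27260346-27261163), with a log2 change of -0.35 (SE 0.099, limma adjusted p = 0.00070). All Cox10-/- libraries lay below the wild type, but relative to the median region Eif4ebp1 was higher by 0.71. Eif4ebp2 held 476, 539.6 and 489.5 normalised reads in wild type and 240.5, 236 and 213 in Cox10-/- (chr10:61451230-61452697). The groups stood far apart, with a log2 change of -1.12 (SE 0.09, limma adjusted p = 1.1e-26), and its centred change of -0.07 was not called. Centred on promoters or quantile normalised, Eif4ebp2 was called lower (-0.22 and -0.18). In the ratio of the genes within a library, log2 of Eif4ebp1 over Eif4ebp2, the wild-type libraries gave -0.63, -1.13 and -0.86 and the Cox10-/- libraries -0.22, -0.12 and 0.06. The groups did not overlap and the mean ratio was 0.78 higher in Cox10-/- (exact permutation p = 0.1, the smallest that 3 against 3 allows, and 0.25 adjusted over 5 pairs). Eif4ebp3 had no region of its own name, and 3 regions within 1 kb of it carry the name Ankhd1.

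The factors of subunit joining and elongation control, Eif5, Eif5a, Eif5b and Eif6, all lost acetylation on the deposited scale (median -0.59) and were all higher on the centred scale. The shares of all genes were 93.8% and 49.2%. Eif5, for the protein that makes eIF2 hydrolyse GTP, held 386, 349 and 369 normalised reads in wild type and 289, 295 and 251 in Cox10-/- (chr12:111536897-111537931), with no overlap and a change of -0.40. Eif5a, for the factor that carries hypusine, held 467, 416 and 483 normalised reads in wild type and 276, 270.4 and 245 in Cox10-/- (chr11:69919750-69921309), with wide separation and a change of -0.78. The centred call of Eif5a, 0.27, ended when libraries were centred on promoters (0.12, adjusted p = 0.10, limma). It also ended in the fit on 1 region per gene (0.11, adjusted p = 0.14, limma). Eif5b, for the GTPase of subunit joining, and Eif6, which keeps the large subunit from joining early, changed by -0.61 and -0.58.

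The 44 regions outside promoters carried 13 of the names, 21 of them that of Eif1a. Such regions are named for the gene that lies nearest, and may act on another. On the deposited scale 34 were lower and 4 higher, near the background of 16970 lower and 1420 higher among all 20407 regions outside promoters. This nearness came with the many regions of Eif1a. Without Eif1a 14 of 23 were lower and 4 higher, with a median change of -0.65 against -1.28 over all regions outside promoters. To set each against its gene, the log2 ratio of the region to the gene's strongest promoter region was taken in each library. These ratios were compared between genotypes over all 16158 such pairs (limma, Benjamini-Hochberg adjusted p under 0.05). The size factor cancels in the ratio except for the pseudocount of 1, which leaves some dependence on it at low regions. Of the 44 member pairs 27 fell relative to the promoter and 7 rose, against 33.1% and 22.4% of all pairs. Pairs of a gene share its promoter, and 20 of the 27 were of Eif1a. Without Eif1a 7 fell and 7 rose of 23.

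Eif4ebp1 gained acetylation downstream of its start while its promoter lost some. At 1 to 3 kb from the start (chr8:27261400-27262496) there were 152, 169.8 and 159.8 normalised reads in wild type and 225, 228 and 192 in Cox10-/-. In intron 1 of 2, the near region (chr8:27264564-27264895) had 22.6, 13.7 and 20.4 normalised reads in wild type and 38.2, 34.7 and 40.9 in Cox10-/-, and the far one (chr8:27265064-27265552) had 39.9, 41.1 and 39.6 normalised reads in wild type and 82.4, 91.2 and 82.6 in Cox10-/-. All Cox10-/- libraries lay above all wild-type ones at the 3 regions, and the deposited changes were 0.42, 0.99 and 1.07 (SE 0.11, 0.26 and 0.17, and limma adjusted p = 0.00016, 0.00021 and 2.5e-09). Relative to the promoter they rose by 0.77, 1.34 and 1.41 (adjusted p = 0.0025, 0.00016 and 4.2e-05, limma). From other settings Eif4ebp1 is known as a target gene of ATF4, the transcription factor of the stress branch.

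Eif4g3 held the largest single rise. A region in intron 4 of 9 (chr4:138077583-138078026), 83.5 kb from the strongest promoter, had 5.32, 9.59 and 6.39 normalised reads in wild type and 54.4, 60.5 and 41.7 in Cox10-/-. These were 4 to 7 reads in each wild-type library, so the size of the rise is imprecise, though the groups stood far apart, with a log2 change of 2.73 (SE 0.31, limma adjusted p = 2.3e-15). Relative to the promoter it rose by 2.99 (SE 0.23, adjusted p = 7.0e-06). The main intronic region of the gene, 2527 bases long (chr4:138064861-138067388), held 632, 659 and 587 normalised reads in wild type and 358, 354 and 364 in Cox10-/- and fell by 0.54 relative to the promoter (adjusted p = 0.0056). A short one beside it (chr4:138068393-138068717) went from 73.0 ± 7.99 to 43.5 ± 2.45 and fell by 0.47 (adjusted p = 0.028, lost without wild-type library 1 or 3 or Cox10-/- library 1 or 2). Regions of the same intron therefore moved in opposite directions on the deposited scale and relative to the promoter. On the centred scale the rising region changed by 3.79 and the main one by 0.25 (limma adjusted p = 0.00016), both called higher. The call of the main region ended when libraries were centred on promoters (0.11). The short one changed by 0.33 on the centred scale and was not called.

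Rises relative to the promoter were also found in 3 other genes. The flank of Eif6 (chr2:155821113-155821358) had 23.9, 16.4 and 21.7 normalised reads in wild type and 39.9, 26.6 and 21.2 in Cox10-/-, with overlap between the groups, and rose by 1.03 relative to its promoter (adjusted p = 0.0024, limma). The Eif6 flank lay 4.925 kb from the promoter region it was set against. A nearer promoter region of Eif6 (chr2:155820153-155820644) changed by -0.17 on the deposited scale, not called, and the flank was not set against it. The flank of Eif5 (chr12:111536158-111536774) had 102, 65.7 and 79.2 normalised reads in wild type and 80.7, 89.6 and 90.2 in Cox10-/-, also overlapping, and rose by 0.50 (adjusted p = 0.032). The intronic region of Eif3h (chr15:51795529-51795846) had 62.5, 58.9 and 67.7 normalised reads in wild type and 58.6, 56.5 and 43.9 in Cox10-/- and rose by 0.43 (adjusted p = 0.025). The Eif5 call ended without wild-type library 2 or 3 or Cox10-/- library 2 or 3, and the Eif3h call without wild-type library 1 or 2 or Cox10-/- library 1 or 2.

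In the other direction Eif1 stood apart. Its flank 1.67 kb upstream of the promoter region (chr11:100318283-100318807) had 126, 148 and 141 normalised reads in wild type and 39.1, 31.5 and 22.0 in Cox10-/-, and fell by 1.88 relative to the promoter (SE 0.18, adjusted p = 1.9e-05, limma). A region 4.20 kb upstream (chr11:100315803-100316234) had 94.5, 80.8 and 80.5 normalised reads in wild type and 32.3, 37.9 and 31.8 in Cox10-/- and fell by 1.02 (adjusted p = 0.00030). The Cox10-/- libraries lay well below the wild type at each. An intronic region of Eif2d (chr1:131185197-131185996) had 190.2, 189 and 181 normalised reads in wild type and 68.0, 50.8 and 53.0 in Cox10-/- and fell by 0.90 (adjusted p = 0.00092). The flank of Eif4e (chr3:138527636-138527989) had 95.8, 80.8 and 66.5 normalised reads in wild type and 46.7, 44.4 and 37.9 in Cox10-/- and fell by 0.55 (adjusted p = 0.030). That of Eif2b3 (chr4:117041187-117041587) had 73.2, 91.8 and 79.2 normalised reads in wild type and 39.1, 34.7 and 37.9 in Cox10-/- and fell by 0.52 (adjusted p = 0.033). The Eif2b3 flank lay 21.8 kb from the promoter region it was set against. The Eif4e call ended without wild-type library 1 or any Cox10-/- library, and the Eif2b3 call without wild-type library 2 or 3 or Cox10-/- library 2.

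Eif1a has a run of 21 regions over the 53.0 kb beyond its promoter, 5 of them in its intron 2 of 2, 2 in the UTR and 14 intergenic. The promoter itself (chr18:46597767-46598977) held 341, 367 and 366 normalised reads in wild type and 289.8, 265 and 230.3 in Cox10-/-, and was higher by 0.60 on the centred scale. The longest region of the run (chr18:46635487-46637722) held 569, 598 and 579 normalised reads in wild type and 347, 342 and 281 in Cox10-/- and fell by 0.40 relative to it (adjusted p = 0.024, limma). On the centred scale the longest region was higher by 0.20 (limma adjusted p = 0.0029), a call that ended when libraries were centred on promoters (0.053). One 31.7 kb away (chr18:46629624-46630475) held 285, 312 and 286 normalised reads in wild type and 110.5, 105 and 78.0 in Cox10-/- and fell by 1.14 (adjusted p = 6.8e-05). Groups did not overlap at these regions. On the deposited scale the 20 regions that fell relative to the promoter changed by -0.85 to -1.78, and the promoter by -0.46. The median over all regions outside promoters was -1.28, within that range. Over these 20 regions the ratio to the promoter changed by -0.40 to -1.33, and 3 of the 20 calls ended when single libraries were left out. They were the UTR region from 46608250 (without any library but Cox10-/- library 3), the intergenic region from 46614833 (wild-type library 1 or 2, Cox10-/- library 1 or 2) and the longest region (wild-type library 1 or 2, Cox10-/- library 1 or 3). The exception (chr18:46616262-46616486) was low, with 33.3, 27.4 and 33.2 normalised reads in wild type and 39.9, 25.8 and 25.8 in Cox10-/-, and overlapped between genotypes. The plot along 4 genes shows this run beside the 3 other patterns.

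**Figure D3:**
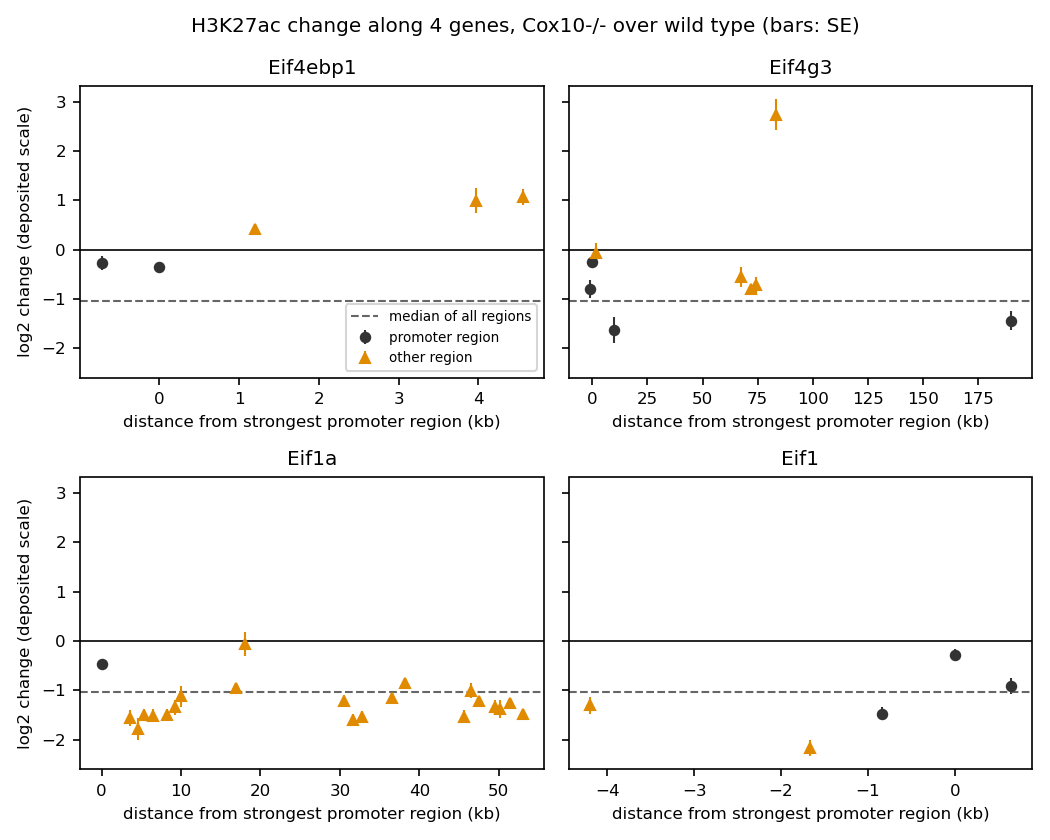
The log2 change of H3K27ac on the deposited scale at each region of Eif4ebp1, Eif4g3, Eif1a and Eif1, against its distance in kb from the centre of the strongest promoter region, with the SE of the limma fit as bars and the median of all regions (-1.04) dashed. In Eif4ebp1 the regions beyond the promoter lie above 0, in Eif4g3 a single intronic region does, and in Eif1a and Eif1 nearly all regions outside the strongest promoter lie below it.

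Where acetylated regions flanked a start site on both sides, the upstream one was set against the downstream one in each library. This comparison was chosen after the data had been seen. Of 12 member genes 3 lost more upstream than downstream and none more downstream (limma, Benjamini-Hochberg adjusted p under 0.05 over 2566 genes), against 13.4% and 9.24% of all genes. The 3 were Eif1, Eif3a and Eif3j1. At Eif1 the upstream region (chr11:100319078-100319683) had 157, 164 and 162 normalised reads in wild type and 65.4, 49.2 and 59.1 in Cox10-/-, and the log2 ratio to the downstream one went from 0.13 ± 0.059 to -1.06 ± 0.20 (SD, n = 3 libraries, a change of -1.19, adjusted p = 0.00051 in limma). The 250 bases shown for Eif1 lie in the gap between these regions. Eif3a (-0.47, adjusted p = 0.034) and Eif3j1 (-0.62, adjusted p = 0.020) had smaller changes. The Eif3a call ended without any of 5 libraries and the Eif3j1 call without any of 4, so that 1 gene was left without wild-type library 2 or 3 or Cox10-/- library 2 or 3.

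Of 15 listed pairs of paralogues 5 had promoter regions of both genes. Besides Eif4ebp1 and Eif4ebp2, Eif1 over Eif1b gave no overlap between genotypes, from -0.76 ± 0.17 to -0.53 ± 0.050 (SD, n = 3, exact permutation p = 0.1, adjusted p = 0.25). The ratio of Eif4e to Eif4e2 changed by 0.29 and that of Eif4b to Eif4h by -0.22, with overlap in each (exact permutation p = 0.3). Single libraries moved these values, to 0.060 for Eif4e over Eif4e2 without wild-type library 1, -0.10 for Eif4b over Eif4h without Cox10-/- library 3 and, for Eif1 over Eif1b, from 0.23 to 0.13 without wild-type library 1. The eIF1A genes Eif1a and Eif1ax changed by 0.018 in their ratio, from 2.45 ± 0.064 to 2.47 ± 0.11 (exact permutation p = 0.9). No pair could pass the threshold with 3 libraries per group.

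Other genes of translation and its control were counted at their strongest promoter regions. On the centred scale 67 of 69 cytosolic ribosomal protein genes were higher and none lower (median 0.60), as were 18 of 19 cytosolic aminoacyl-tRNA synthetase genes (median 0.55), against a median of 0.47 in the 37 initiation factor genes and 0.23 in all genes. On the deposited scale those lists had 64 of 69 and 15 of 19 genes lower and none higher. The lists that follow are read against 49.2% higher and 15.4% lower of all genes on the centred scale. Of the 8 elongation factor genes 5 were centred higher and Eef2k was lower. Of 5 termination and recycling genes 4 were higher, and of 8 mitochondrial translation genes 5. Of 17 poly(A)-binding and other regulators 11 were higher, Bzw1 and Cyfip1 among them, and Larp1 and Pdcd4 were lower. Of 24 genes of the mTORC1 pathway 10 were higher and Akt1s1 and Depdc5 were lower, near the shares of all genes. On the deposited scale no gene of these 5 lists was higher, and 8 of 8 elongation, 5 of 5 termination, 8 of 8 mitochondrial, 15 of 17 poly(A)-binding and other regulator and 23 of 24 mTORC1 pathway genes were lower.

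Known ATF4 targets and regulators of the integrated stress response, the branch that acts on eIF2, had the highest centred medians of these lists, 0.86 and 0.64. Of the 4 eIF2 kinases, Eif2ak3 (PERK) and Eif2ak4 (GCN2) were higher on the centred scale (0.59 and 0.47), and Eif2ak1 and Eif2ak2 were not called (0.08 and 0.10). All 4 were lower on the deposited scale. Of 10 regulators of the integrated stress response 8 were centred higher and none lower, while on the deposited scale 7 were lower and 1, Trib3, was higher. Trib3, a feedback inhibitor of ATF4, went from 105 ± 19.8 to 217 ± 29.7 (SD, n = 3), 2.08-fold up on the deposited scale, and Ppp1r15a, for the subunit that directs dephosphorylation of eIF2, from 508 ± 25.1 to 430.3 ± 25.1. Of 17 known ATF4 target genes 15 were centred higher and Cth lower, with a median of -0.19 on the deposited scale. On the deposited scale 4 of the 17 rose, 7 fell and 6 were not called. The 4, named after their values were seen, were the asparagine synthetase gene Asns, from 7.96 ± 0.28 to 27.7 ± 2.7, the arginine transporter gene Slc7a1, from 19.2 ± 8.99 to 66.6 ± 5.84, Mthfd2 of mitochondrial folate metabolism, from 36.5 ± 8.4 to 67.1 ± 12, and Aldh18a1 of proline synthesis, from 20.8 ± 3.94 to 34.0 ± 7.23. At promoters no initiation factor gene rose on that scale, near the background of 0.807% of all genes with a promoter region.

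**Figure D4:**
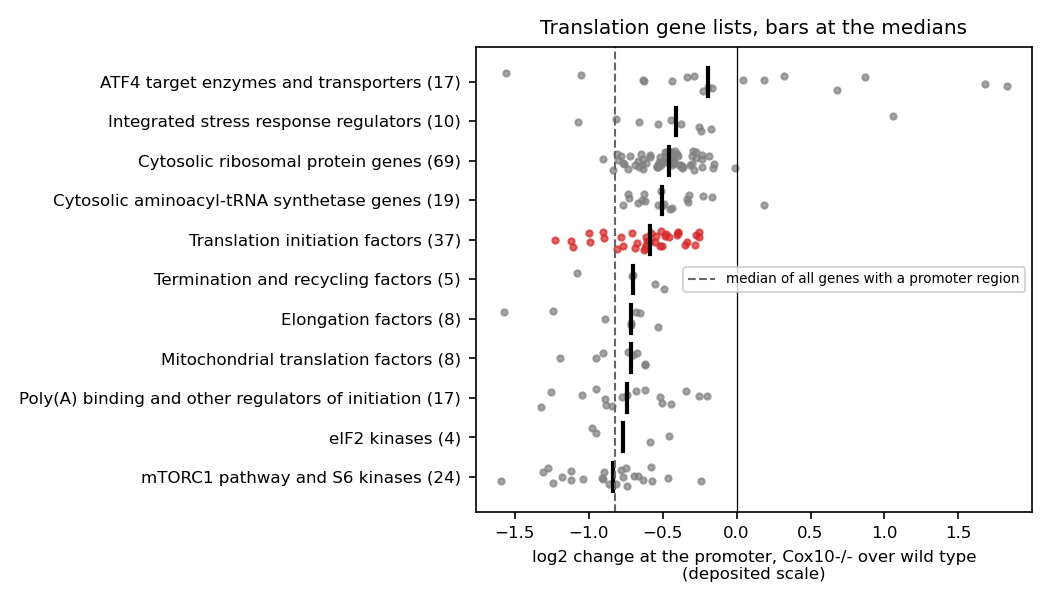
The log2 change at the strongest promoter region of each gene on the deposited scale, by list, with 1 point per gene, the number of genes in brackets, a bar at each median and the median of all genes (-0.82) dashed. The 37 initiation factor genes (red) have their median at -0.59, between the aminoacyl-tRNA synthetase genes (-0.50) and the termination factors (-0.70), and the ATF4 targets spread widest to the right.

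The genes whose strongest region was most like the Eif4ebp1 promoter were Cmtm3, Fitm2, Gm10282, Zyg11b and Cerk. Likeness was the Euclidean distance over the 6 libraries between centred profiles, each less its own mean, and these 5 lay at 0.086 to 0.14 among 11203 genes, where the median gene lay at 0.76. Of the 52 protein-coding Eif genes of the RefSeq annotation, 15 had no region of their name. Eif2b5, Eif4g1 and Eif4a2 are on chromosome 16 and Eif2s3y on Y. Of the other 11, Eif3m, Eif4e3, Eif4enif1, Eif4ebp3 and Eif1ad had regions within 1 kb that carry a neighbour's name.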

How the data were processed

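H3K27ac was measured by chromatin immunoprecipitation and sequencing in 3 libraries per genotype. Values of the 6 input libraries did not enter. The authors deposited normalised reads per region (a signal), with log2 fold changes and their raw and adjusted p-values. The submitters' processing notes list BWA 0.7.5, deepTools 3.5.0 and MACS, with no roles, and the build mm10. Every value was a whole number of reads within 0.01 after multiplication by 1 size factor per library, 0.730 to 0.782 in wild type and 1.18 to 1.32 in Cox10-/-. Per the labels' protocols spike-in chromatin was added. The origin of the size factors is not given in the sources used. Of 36446 listed regions 59 were repeats and were dropped. Chromosome 16 was not analysed here, and coordinates are as deposited.

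Regions were tested with limma 3.58.1 (R 4.3.3) with a variance trend on log2(value + 1), without filter or block, on the deposited and the centred scale, with Benjamini-Hochberg adjustment over all regions and a threshold of 0.05. The pseudocount understates changes of low regions. Ratios within a library were tested the same way. Where 1 region stands for a gene, it is the promoter region with the highest mean level. Values per library are given for the members with the highest and lowest centred change of each role, the 4E-BP genes, regions that rose on the deposited scale and regions that differed from their promoter (for Eif1a, examples and ranges). Genes of the other lists are named by smallest centred adjusted p, at most 2 per list and direction. The members, roles and lists were chosen with earlier results of these data known. The fits were tested on simulated data. Alternatives were other pseudocounts, a minimum level, a stricter threshold, a block, leaving out each library, other centrings, and count tests of the recovered reads (edgeR 4.0.16, DESeq2 1.42.0).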

Additional observations from a re-analysis of the deposited data

How the results depend on the processing

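With 3 libraries per group, low regions are imprecise and 1 library can end a call near the threshold. Leaving out each library in turn gave, on the deposited scale, 87 to 90 regions lower and 4 to 5 higher, on the centred scale 13 to 18 lower and 51 to 54 higher, and against the promoter 22 to 26 lower and 5 to 6 higher. Centring on promoters gave 27 lower on the centred scale in place of 17, and fitting 1 region per gene gave 1 gene lower in place of 0. On recovered reads and with the deposited size factors edgeR gave 91 lower and 4 higher (31769 and 1608 of all 36387 regions). With TMM it gave 19 lower and 52 higher (12164 and 12145 of all regions). DESeq2 gave 13 lower and 49 higher (10231 and 10271 of all regions). Leaving out 1 library gave 1 to 4 genes with more loss upstream than downstream of the start, and a pseudocount of 5 gave 1 gene with more loss downstream in place of 0. The ratio of Eif1a to Eif1ax, 0.018, was -0.0075 with a pseudocount of 5 and -0.027 to 0.081 when 1 library was left out (-0.0026 without wild-type library 2 and -0.027 without Cox10-/- library 1). 

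Regions near 0 changed sign, none of them called with the changed sign, and the cause was not tested. When single libraries were left out, the deposited change of the Eif5 flank from 111536158 ranged from -0.055 to 0.26. Centred changes ranged from -0.27 to 0.093 at Eif1a from 46608250, -0.058 to 0.24 at Eif1a from 46614833 (called higher at 0.24, without Cox10-/- library 2, limma adjusted p = 0.043), -0.27 to 0.064 at Eif2a, -0.13 to 0.046 at the Eif2b3 flank and -0.32 to 0.10 at Eif2b1. With other centrings, Eif1a from 46608250 was 0.058 and Eif2a 0.14 (quantile normalised), and Eif1a from 46614833 was -0.055, Eif1a from 46644711 -0.10 and Eif3k -0.083 (centred on promoters). With a pseudocount of 5 Eif2a was 0.018.

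Libraries that share a replicate number did not deviate together (r = -0.0009, 0.0074 and 0.0054 across regions), so the numbers were not taken as pairs. With the replicate number as a block 90 regions came out lower and 4 higher on the deposited values, 17 lower and 52 higher after centring, 27 lower and 7 higher against the promoter, and 2 genes with more loss upstream. The block ended the call of the Eif2b3 flank against its promoter (-0.52, limma adjusted p = 0.054) and the upstream call of Eif3a (-0.47, adjusted p = 0.059).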

Other observations

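In the authors' deposited table, adjusted p was under 0.05 with a negative log2 fold change at 87 of the 103 initiation factor regions and with a positive one at 4. This was near the background of 30858 negative and 1301 positive among all 36387 regions. The authors' calls were the same as those of limma on the deposited scale at 100 of the 103 regions, and at 35205 of all 36387. The 3 other initiation factor regions, named after their values were seen, were promoter regions of Eif1, Eif3e and Eif5 that limma called lower. For them the authors' deposited table gives log2 fold changes of -0.28, -0.28 and -0.27 with adjusted p-values of 0.070, 0.091 and 0.30.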
